A study of Danio rerio with 10 samples.

Results

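The interferon response genes described here are isg15, mxa, rsad2, stat2, irf1b, irf7, irf9 and ifih1, 8 of the 32520 zebrafish genes counted in the series. They were chosen by symbol, matched without regard to case, with earlier results of these data known. The name table gave all 8 by their own symbol. Their identifiers are ENSDARG00000086374 (isg15), ENSDARG00000021688 (mxa), ENSDARG00000004952 (rsad2), ENSDARG00000031647 (stat2), ENSDARG00000043249 (irf1b), ENSDARG00000045661 (irf7), ENSDARG00000016457 (irf9) and ENSDARG00000018553 (ifih1).

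RNA was sequenced from cells sorted out of adult zebrafish hearts, in 10 libraries of 2 experiments, each library a pool of 6000 cells from 15 ventricles. In the first, cells with eGFP driven by the CD41 promoter, which marks thrombocytes, the nucleated platelets of fish, came from 3 libraries of clofv087b/+ fish (clo/+ here) and 3 of wild-type fish after part of the ventricle was cut away. In the second, cells with DsRed driven by the gata1a promoter, which is active in red cells and thrombocytes, came from 2 libraries titled Npas4l OE and 2 titled control, all 7 days after 4-hydroxytamoxifen (4-HT), which activates Cre-ERT2. The Npas4l OE fish carried gata1a:Cre-ERT2 together with the transgene ubi:loxp-eGFP-stop-loxp-Npas4l, in which Cre made under the gata1a promoter removes a stop cassette so that the ubi promoter can drive Npas4l. Control replicate 2 carried the same Npas4l transgene without the Cre, whereas the genotype label of control replicate 1 is clofv087b/+. The clo locus encodes npas4l, whose protein switches on the blood and endothelial programme in embryos. The CD41 libraries are labelled 1 day after amputation by sample and 3 days in the design text of the series. All 10 are labelled as platelets.

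Interferons are secreted by cells that sense foreign or misplaced nucleic acid. They bind receptors whose Janus kinases phosphorylate Stat factors, Stat2 among them; with Irf9 these form a complex that enters the nucleus and binds interferon-stimulated response elements in the promoters of target genes. The targets include antiviral effectors as well as the sensors, Stat and Irf factors themselves, so that the pathway feeds forward. In fish, virus-induced type I interferons and the receptor chains crfb1 and crfb2 carry this response, and heart tissue contains resident macrophages that express many of its components.

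Gene counts ranged from 6764258 to 13067068 per library. The targeted gene did not separate the groups: npas4l was at 2.29 ± 1.55 CPM in clo/+ and 2.17 ± 1.63 CPM in wild type (SD, n = 3 each), and at 42.3 ± 21.1 CPM in Npas4l OE and 36.2 ± 8.37 CPM in control libraries (SD, n = 2 each), with edgeR adjusted p of 0.987 and 0.826. The directions given for the libraries labelled Npas4l OE therefore rest on the titles. In control replicate 1, with the genotype label clofv087b/+, npas4l was at 42.1 CPM. It was at 30.3 CPM in control replicate 2 and at 57.2 and 27.4 CPM in Npas4l OE libraries 1 and 2. The CD41 clo/+ libraries ranged from 1.12 to 4.04 CPM. What the fish of control replicate 1 carried was not tested. CPM is the depth-scaled read count, here with trimmed mean of M values (TMM) factors set over all 10 libraries. The thrombocyte gene itga2b was detected in every library, at 457 to 1339 CPM in CD41 libraries and 2229 to 3114 CPM in gata1a libraries. Markers of other cells were present too. The 11 cardiomyocyte genes summed to between 14610 and 46232 CPM in a library. The 23 macrophage genes summed to 672 to 905 CPM in clo/+ and 466 to 533 CPM in wild-type libraries, and to 342 and 1241 CPM in Npas4l OE and 1610 and 2951 CPM in control libraries. In bulk RNA of this kind, fewer cells of a type and less RNA per cell cannot be told apart.

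**Figure D1:**
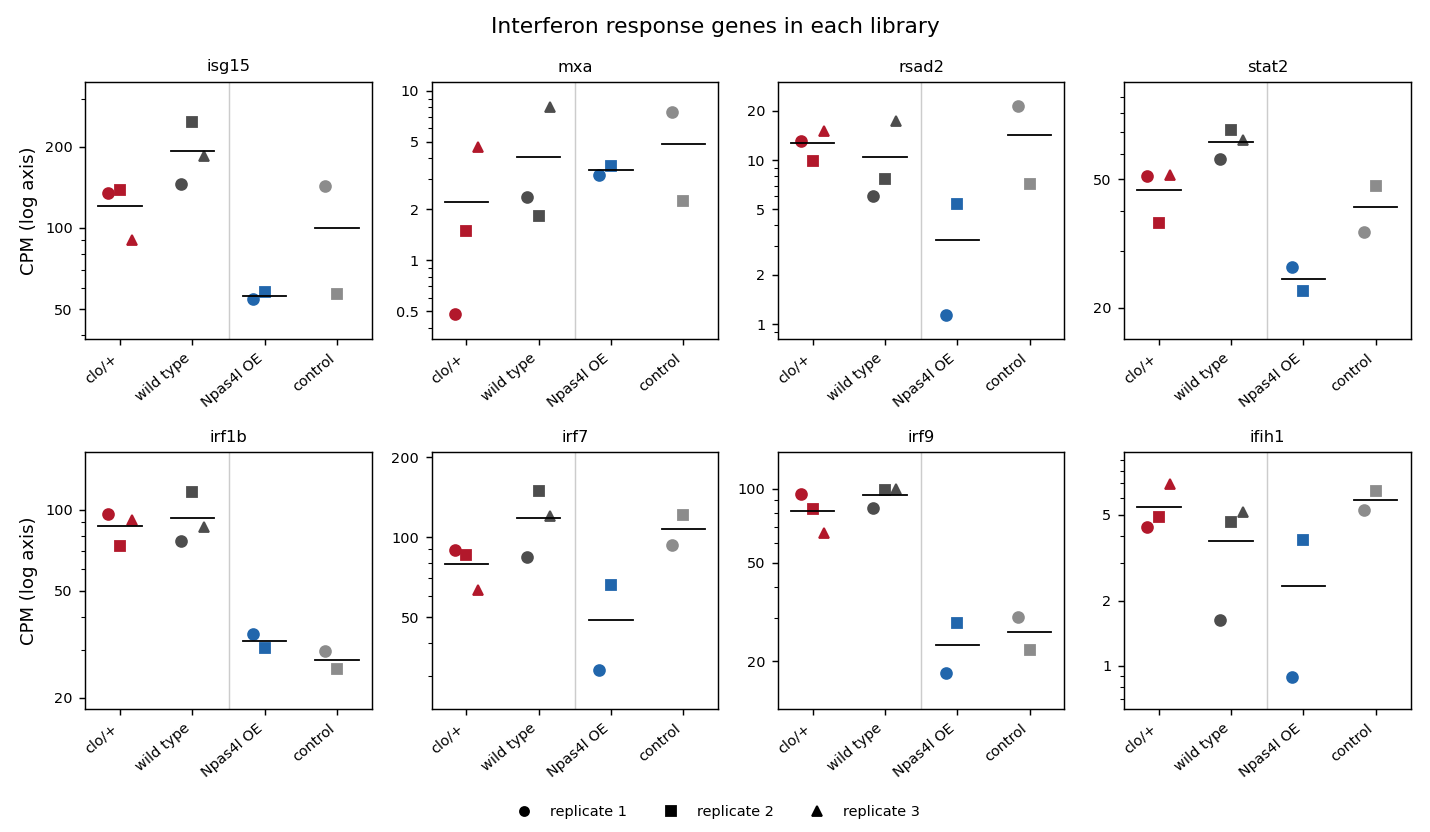
CPM of each of the 8 interferon response genes in each library (log axes, which differ between panels); symbols give the replicate number and the black bar is the group mean. All 3 clo/+ libraries lie below all 3 wild-type libraries for isg15 and stat2. Both Npas4l OE libraries lie below both controls for rsad2, stat2, irf7 and ifih1, and above both for irf1b. Of all genes tested, 8.59% were lower without overlap in clo/+. In Npas4l OE 23.7% were lower and 24.1% higher without overlap.

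The first comparison asks how loss of a clo allele relates to expression in CD41-sorted cells. All 8 genes passed the filter on low counts. None had an adjusted p under 0.05 by edgeR's quasi-likelihood test, where 0.0145% of the 13749 genes tested did, and none was called by limma-voom or by DESeq2, which gave no adjusted p for mxa and ifih1. At an unadjusted p under 0.05 there were 3 of 8, isg15, irf7 and stat2, all with lower means in clo/+, beside 12% of all genes tested (4.79% lower). The log2 fold change was below 0 for 6 of 8 genes, beside 50.2% of all genes, and its median was -0.36 over the 8, beside -0.0021 over all genes tested.

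Among the effectors, isg15 encodes a ubiquitin-like protein that is attached to other proteins and also acts outside the cell. It was at 134, 138 and 90.1 CPM in clo/+ libraries 1 to 3, against 145, 247 and 185 CPM in wild-type libraries 1 to 3. Every clo/+ library lay below every wild-type library, although clo/+ replicates 1 and 2 were close to wild-type replicate 1. For isg15 the log2 fold change was -0.69 (SE 0.24, edgeR adjusted p 0.267). mxa encodes a dynamin-like GTPase that traps viral particles. It was counted 6, 15 and 37 times in the clo/+ libraries, or 0.48 to 4.68 CPM, against 16, 15 and 70 times in the wild-type libraries, or 1.82 to 8.03 CPM. The groups overlapped, and replicate 3 was the highest library of each. The log2 fold change of -0.93 (SE 0.72, edgeR adjusted p 0.628) became 0.054 without wild-type replicate 3. rsad2 encodes viperin, an enzyme that makes a chain-terminating nucleotide. It was at 13.2, 9.88 and 15.0 CPM in clo/+, against 6.08, 7.66 and 17.4 CPM in wild type. The clo/+ libraries lay within the wild-type range, and the log2 fold change was 0.27 (SE 0.36, edgeR adjusted p 0.794).

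The Stat and Irf factors carry the signal to these genes. stat2, which is dedicated to type I interferon signalling in mammals, was at 51.3, 36.6 and 51.4 CPM in clo/+, against 57.6, 71.2 and 66.3 CPM in wild type. The groups did not overlap. For stat2 the log2 fold change was -0.50 (SE 0.21, edgeR adjusted p 0.369). irf7, the factor that amplifies interferon transcription, was at 89.5, 85.3 and 63.1 CPM in clo/+, against 84.2, 149 and 120.3 CPM in wild type. Wild-type replicate 1 fell among the clo/+ libraries, so the groups overlapped. The log2 fold change was -0.58 (SE 0.23, edgeR adjusted p 0.326). With isg15 and stat2 the count of genes whose groups did not overlap was 2 of 8, both lower, beside 8.59% of all genes lower, 9.63% higher and 18.2% in either direction.

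For the other factors the groups overlapped. irf1b, a factor that acts downstream of type II interferon in mammals, ranged from 73.4 to 96.1 CPM in clo/+ and from 76.8 to 116 CPM in wild type. Its log2 fold change was -0.11 (SE 0.22), and for irf9, the DNA-binding partner of Stat factors, it was -0.22 (SE 0.21). irf9 ranged from 66.4 to 94.7 CPM in clo/+ and from 83.3 to 100.02 CPM in wild type. ifih1 encodes Mda5, a sensor of long double-stranded RNA in the cytosol. It was counted 55, 49 and 55 times in clo/+ libraries, against 11, 38 and 45 times in wild-type libraries, or 4.42 to 6.95 CPM against 1.63 to 5.16 CPM. This gave a log2 fold change of 0.48 (SE 0.47). The smallest of the adjusted p of these 3 genes was 0.693 in edgeR.

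Leaving out 1 library at a time kept isg15, stat2 and irf7 below 0 in each of the 6 fits, with log2 fold changes from -0.84 to -0.46, from -0.58 to -0.35 and from -0.77 to -0.38. The lowest adjusted p that any alternative gave to any of the 8 in this comparison was 0.122, for isg15. The macrophage sums, unlike these 3 genes, were higher in every clo/+ library than in every wild-type library. Of the 18 macrophage genes tested, 17 had log2 fold changes above 0, beside 6851 of all 13749 genes tested. By edgeR 0 of them had an adjusted p under 0.05. At an unadjusted p under 0.05 there were 6, all higher, beside 7.19% of all genes higher. Endothelial sums did not overlap either, at 428 to 594 CPM in clo/+ against 317 to 422 CPM in wild type. Thrombocyte, erythroid, cardiomyocyte, neutrophil, lymphocyte, and fibroblast and epicardium sums overlapped. All 7 endothelial genes had log2 fold changes above 0. By edgeR 4 were at an unadjusted p under 0.05, beside the same 7.19% of all genes higher, and 0 at an adjusted p under 0.05. The part of these cells in the values of the interferon genes was not tested.

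**Figure D2:**
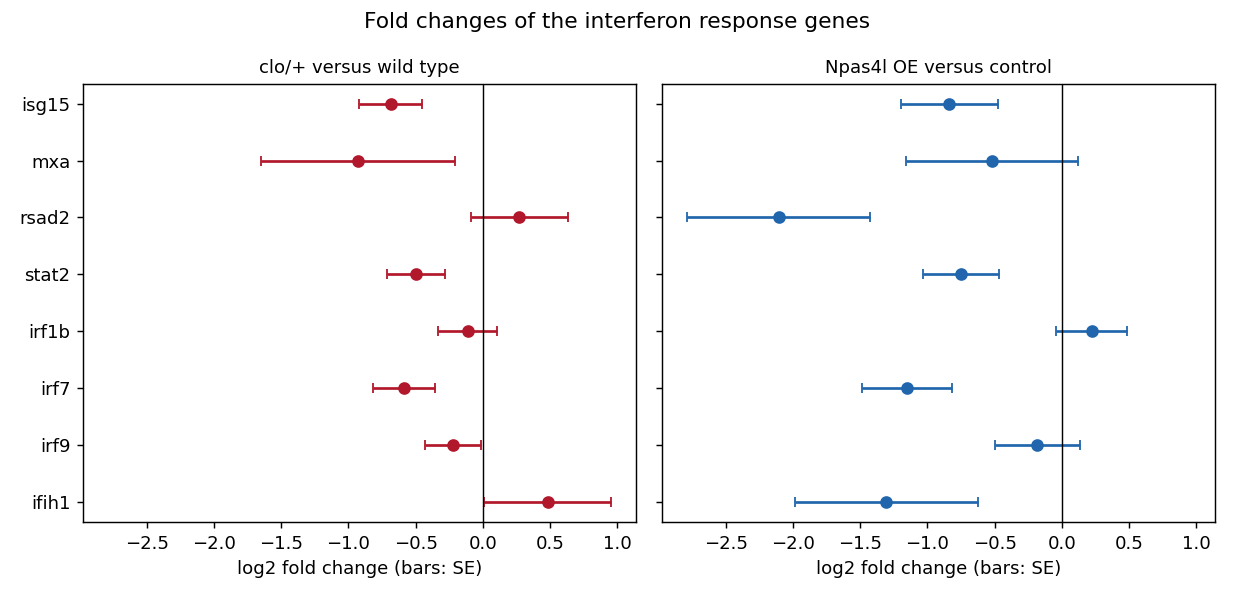
Log2 fold changes of the 8 genes with their standard errors in clo/+ versus wild type (left) and Npas4l OE versus control (right), from edgeR. Points left of 0 are lower in clo/+ or in Npas4l OE: 6 of 8 on the left and 7 of 8 on the right, with medians of -0.36 and -0.79.

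The second comparison asks how Npas4l overexpression relates to expression in gata1a-sorted cells. Again all 8 genes passed the filter and none had an adjusted p under 0.05 by edgeR, where 0.0357% of 14006 genes tested did. limma-voom called none and DESeq2, which gave no adjusted p for mxa, rsad2 and ifih1, called 1, irf7. At an unadjusted p under 0.05 there were 4 of 8 (isg15, rsad2, stat2 and irf7), all with lower means in Npas4l OE, beside 15.5% of all genes tested (9.36% lower). The log2 fold change was below 0 for 7 of 8, beside 50.6% of all genes, but for 6 of 8 when library size was the only scaling, where irf9 had a value above 0. The median was -0.79, beside -0.010 over all genes tested. Without control replicate 1, the library with the conflicting genotype label, 5 of 8 were below 0 and the median was -0.50.

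irf7 was at 31.6 and 65.8 CPM in Npas4l OE libraries 1 and 2, against 93.2 and 120.9 CPM in control libraries 1 and 2. Both Npas4l OE libraries lay below both controls, and replicate 1 was the lowest of the 4. Its log2 fold change was -1.15 (SE 0.33) with an edgeR adjusted p of 0.172. With all 4 libraries kept, irf7 was called by DESeq2 (adjusted p 0.0287). By edgeR it was called with no filter on low counts (adjusted p 0.00268) and with the replicate number as a block (0.0399). Each of these settings also called many more of all genes tested than the analysis reported, as given below. With 1 library left out, the log2 fold change of irf7 ran from -1.75 without Npas4l OE replicate 2 to -0.70 without Npas4l OE replicate 1. stat2 was at 26.8 and 22.5 CPM in Npas4l OE libraries, against 34.4 and 47.5 CPM in control libraries. Here too the groups did not overlap. The log2 fold change was -0.75 (SE 0.28, edgeR adjusted p 0.246), and it ran from -0.97 without control replicate 1 to -0.48 without control replicate 2.

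rsad2 was counted 9 and 52 times in Npas4l OE libraries, or 1.14 and 5.37 CPM, against 174 and 54 times in control libraries, or 21.3 and 7.11 CPM. The libraries of each group differed by a factor of 4.71 in Npas4l OE and 3.00 in control, so that Npas4l OE replicate 2 and control replicate 2 stood close together. The log2 fold change was -2.11 (SE 0.68, edgeR adjusted p 0.197). With all 4 libraries kept, rsad2 was called only without a filter on low counts, a setting that called many more of all genes tested. Its log2 fold change was -1.13 without control replicate 1 and -3.61 without Npas4l OE replicate 2, each a fit with 1 library left in a group. ifih1 was counted 7 and 37 times in Npas4l OE libraries, or 0.89 and 3.82 CPM, against 43 and 49 times in control libraries, or 5.26 and 6.45 CPM. The groups did not overlap, and Npas4l OE replicate 1 stood apart on the low side. For ifih1 the log2 fold change was -1.31 (SE 0.68, edgeR adjusted p 0.395), with -0.61 without Npas4l OE replicate 1.

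For isg15 and mxa, as for rsad2 and irf9, control replicate 1 was the highest gata1a library. Control replicate 2 did not lie above both Npas4l OE libraries for isg15 and mxa, whereas it did for rsad2. isg15 was at 54.4 and 57.6 CPM in Npas4l OE libraries, against 143 and 56.7 CPM in control libraries. Control replicate 1 exceeded control replicate 2 by a factor of 2.51 for isg15 and 3.34 for mxa, and 5 of the 8 genes and 49.9% of all genes tested were higher in it than in control replicate 2. For isg15 the log2 fold change in Npas4l OE was -0.84 (SE 0.36, edgeR adjusted p 0.305). It was -0.039 without control replicate 1 and -1.35 without control replicate 2. mxa was at 3.17 and 3.62 CPM in Npas4l OE libraries, against 7.47 and 2.24 CPM in control libraries, and its log2 fold change of -0.52 (SE 0.64) became 0.58 without control replicate 1.

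The smallest differences were those of irf9 and irf1b. irf9 was at 18.0 and 28.6 CPM in Npas4l OE libraries, against 30.2 and 22.3 CPM in control libraries (log2 fold change -0.18, SE 0.31). irf1b was the 1 gene with a higher mean in Npas4l OE, at 34.5 and 30.7 CPM against 29.9 and 25.5 CPM in control libraries (log2 fold change 0.22, SE 0.26). The groups overlapped for irf9 and not for irf1b. Over the 8 genes, ranges did not overlap for 4 lower genes and 1 higher gene, beside 23.7% of all genes tested lower, 24.1% higher and 47.8% in either direction. The adjusted p were 0.836 for irf9 and 0.736 for irf1b in edgeR.

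**Figure D3:**
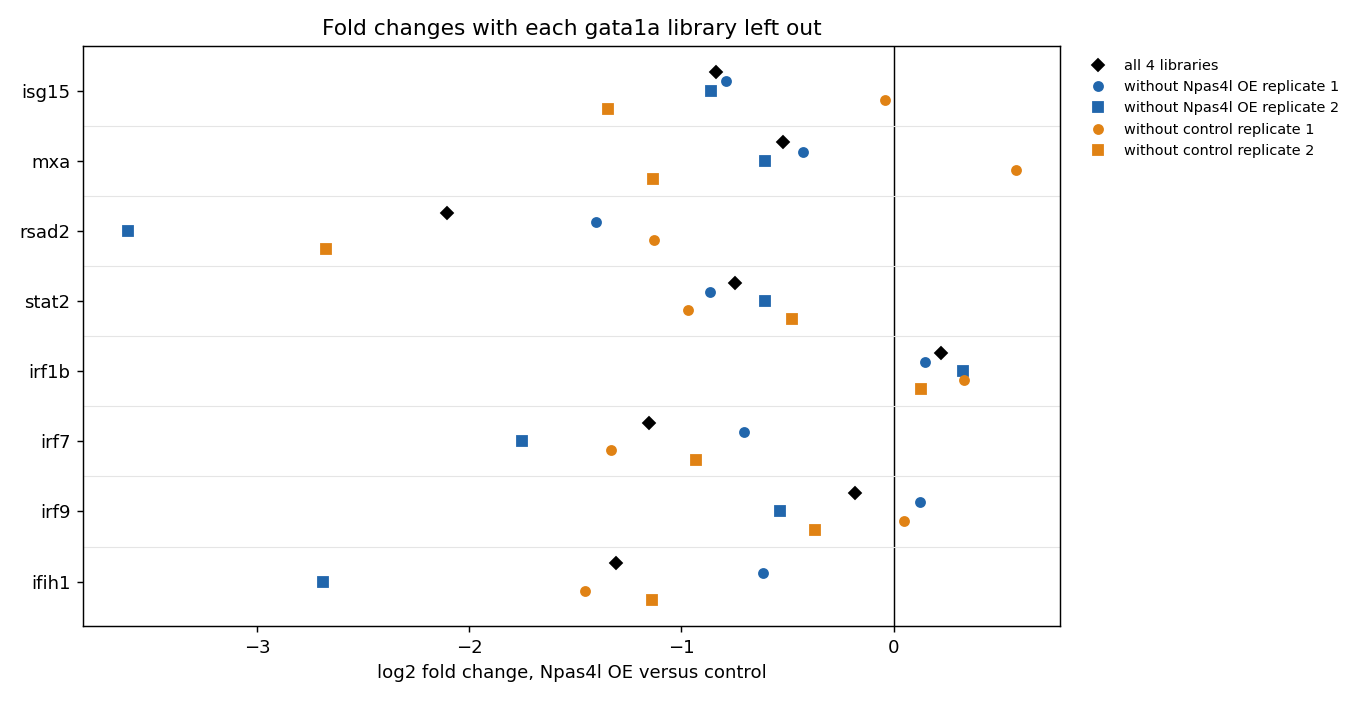
Log2 fold changes of the 8 genes in Npas4l OE versus control with all 4 libraries (black diamonds) and with each library left out. Without control replicate 1 (orange circles) isg15 and mxa moved to -0.039 and 0.58, and without Npas4l OE replicate 2 (blue squares) rsad2 moved to -3.61. The values of isg15, rsad2, stat2, irf7 and ifih1 stayed below 0 throughout, those of mxa and irf9 changed sign, and irf1b stayed above 0.

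Macrophage sums were lower in both Npas4l OE libraries than in both control libraries, as were lymphocyte, cardiomyocyte, endothelial and erythroid sums. Neutrophil sums overlapped, at 14.1 and 7.02 CPM in Npas4l OE and 20.6 and 10.4 CPM in control libraries. So did fibroblast and epicardium sums, at 2209 and 1859 CPM against 1556 and 2252 CPM. The 23 macrophage genes, of which 17 were counted in every gata1a library of either group, summed to 342 and 1241 CPM in Npas4l OE. In control libraries they summed to 1610 and 2951 CPM. The lowest sum was that of Npas4l OE replicate 1, also the lowest of the 4 libraries for rsad2, irf7, ifih1, irf9 and isg15. For isg15 it was close to control replicate 2 (54.4 against 56.7 CPM). The lowest library was Npas4l OE replicate 2 for stat2 and control replicate 2 for mxa and irf1b. For irf1b Npas4l OE replicate 1 was the highest. Control replicate 1, the highest library for isg15, mxa, rsad2 and irf9, did not have the highest macrophage sum. Of the 17 macrophage genes tested, 16 had log2 fold changes below 0, beside 50.6% of all genes. By edgeR 12 were lower at an unadjusted p under 0.05, beside 9.36% of all genes. 1 of them, mhc2dab, had an adjusted p under 0.05 by edgeR. 4 of the 8 MFAP4 genes in the list were at 0 in all but 1 of the 10 libraries. The 12 lymphocyte genes summed to 8.75 and 14.7 CPM in Npas4l OE and to 24.1 and 22.3 CPM in control libraries, with cd8a and PAX5 at 0 in all 10. Cardiomyocyte genes summed to 23798 and 21999 CPM in Npas4l OE and to 40070 and 46232 CPM in control libraries. Endothelial genes summed to 490.0 and 564 CPM against 719.7 and 886 CPM, and erythroid genes to 975 and 917 CPM against 1928 and 1024 CPM. At an unadjusted p under 0.05 by edgeR, 6 of 9 cardiomyocyte and 5 of 7 erythroid genes tested were lower. Of 7 endothelial genes, 5 were at that p, 4 of them lower. Thrombocyte genes, which like the erythroid genes mark cells in which the gata1a promoter is active, summed to 6601 and 5784 CPM in Npas4l OE. In control libraries they summed to 5256 and 4149 CPM. Of the 8 thrombocyte genes, 7 had log2 fold changes above 0, beside 6917 of all 14006 genes tested. At an unadjusted p under 0.05 there were 3 higher and 1 lower, beside 6.11% and 9.36% of all genes, with 0 at an adjusted p under 0.05 by edgeR. The part of these cells in the values of the interferon genes was not tested.

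**Figure D4:**
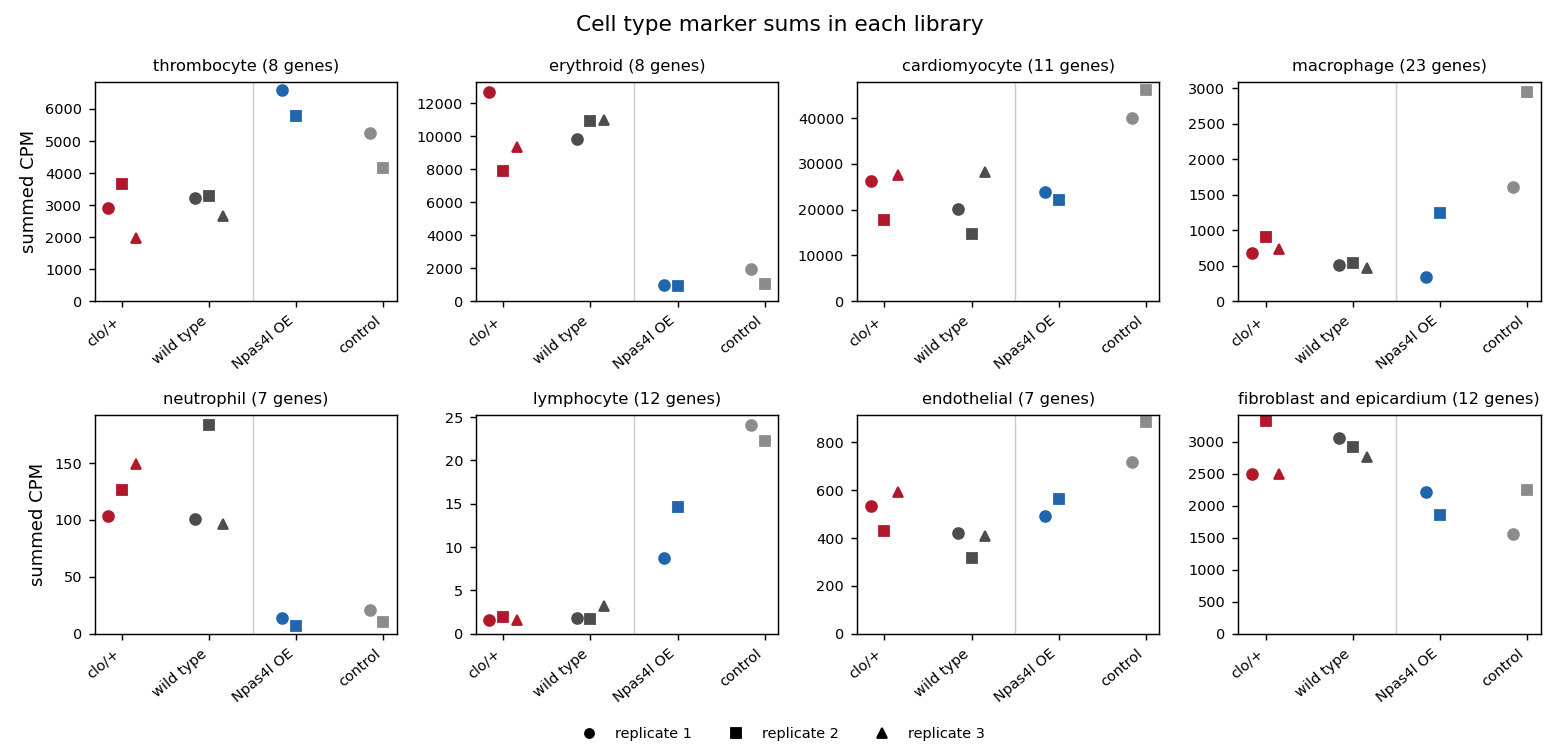
Summed CPM of each cell type marker list in each library (linear axes from 0, which differ between panels); symbols give the replicate number. Macrophage sums are higher in all 3 clo/+ libraries than in wild type (672 to 905 against 466 to 533 CPM) and lower in both Npas4l OE libraries than in control (342 and 1241 against 1610 and 2951 CPM).

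The rest of the pathway was read through lists by role. Of the 6 ligand genes, 1 passed the filter: ifnphi1, a type I interferon gene. It was at 3.68 ± 0.89 CPM in clo/+ and 4.76 ± 2.59 CPM in wild type (SD, n = 3 each), and 1.88 ± 0.75 CPM in Npas4l OE and 2.84 ± 0.66 CPM in control (SD, n = 2 each). Its log2 fold changes were -0.39 (SE 0.50) and -0.61 (SE 0.73), with edgeR adjusted p of 0.787 and 0.739. ifnphi4 had 0 counts in each library, which allows up to 0.23 to 0.44 CPM in a library (3 counts, counting error only). ifnphi2, ifnphi3, ifng1 and ifng1r had at most 1, 8, 3 and 2 counts in any library.

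No gene of the other lists had an adjusted p under 0.05 in either comparison by edgeR. Of the 6 receptor and Janus kinase genes, 1 was higher and 1 lower at an unadjusted p under 0.05 in clo/+, beside 7.19% and 4.79% of all genes. The lower one was crfb1, a chain of the zebrafish type I interferon receptor. It ranged from 15.3 to 23.1 CPM in clo/+, against 30.3 to 35.6 CPM in wild type (log2 fold change -0.68, SE 0.23, edgeR adjusted p 0.260). In gata1a cells it was at 36.8 and 40.6 CPM in Npas4l OE, against 24.6 and 25.9 CPM in control libraries (log2 fold change 0.60, SE 0.26, edgeR adjusted p 0.298). The ranges did not overlap in either experiment, beside 18.2% of all genes tested in clo/+ and 47.8% in Npas4l OE. The difference between the 2 comparisons was not tested. jak2a, a kinase used by many cytokine receptors, was at 68.6 ± 8.61 CPM in clo/+ and 46.2 ± 5.94 CPM in wild type (SD, n = 3 each; log2 fold change 0.56, SE 0.21), and at 90.2 ± 7.16 CPM in Npas4l OE and 71.6 ± 2.87 CPM in control (SD, n = 2 each; log2 fold change 0.32, SE 0.23).

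Among 15 sensors and adaptors, 12 were tested in each comparison, with 3 at an unadjusted p under 0.05 in clo/+ (1 higher, 2 lower), beside 12% of all genes, and 2 in Npas4l OE (1 higher, 1 lower), beside 15.5%. TBK1, the kinase that phosphorylates Irf3 and Irf7, was at 18.9, 39.4 and 35.3 CPM in clo/+, against 16.4, 18.6 and 21.8 CPM in wild type (log2 fold change 0.70, SE 0.27, edgeR adjusted p 0.307). Clo/+ replicate 1 lay within the wild-type range. traf3, an adaptor upstream of TBK1, had a log2 fold change of -0.69 (SE 0.29, edgeR adjusted p 0.349) in clo/+. In the gata1a experiment it was at 14.2 and 16.7 CPM in Npas4l OE, against 9.55 and 5.66 CPM in control libraries (edgeR adjusted p 0.237). STING1, the adaptor for cytosolic DNA sensing, was at 0.51 and 6.30 CPM in Npas4l OE, against 5.51 and 16.2 CPM in control libraries, a log2 fold change of -1.66 (SE 0.84). This value ran from -4.37 without Npas4l OE replicate 2 to -0.67 without control replicate 2, each a fit with 1 library left in a group. Of 12 alternatives 2 called STING1, among them the fit without Npas4l OE replicate 2. It did not pass the filter in the CD41 experiment.

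The 12 other Irf and Stat genes, of which 9 were tested, held none at an unadjusted p under 0.05 in clo/+, beside 12% of all genes, and 2 in Npas4l OE, both lower, IRF8 and stat5a, beside 9.36% of all genes lower. IRF8, a factor that macrophages need for their development, was at 4.06 and 22.4 CPM in Npas4l OE, against 31.0 and 49.4 CPM in control libraries (log2 fold change -1.61, SE 0.58, edgeR adjusted p 0.237). It was called in 3 of 14 alternatives, among them the fit without Npas4l OE replicate 2. In that fit, with 1 library left in the group, the log2 fold change was -3.29, and without Npas4l OE replicate 1 it was -0.84.

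The list of 35 other effectors includes several Mx, ifit and gbp genes. Reads that align to more than 1 paralogue may be missing from their counts. In clo/+ 25 were tested, with 2 higher and 2 lower at an unadjusted p under 0.05, beside 7.19% and 4.79% of all genes, and a median log2 fold change of 0.12. eif2ak2, the double-stranded-RNA-activated kinase that halts translation, was at 6.43, 5.69 and 5.81 CPM in clo/+, against 11.4 to 13.9 CPM in wild type. The groups did not overlap, beside 8.59% of all genes that were lower without overlap. For eif2ak2 the log2 fold change was -1.10 (SE 0.31, edgeR adjusted p 0.185, and 0.0497 with DESeq2). lgals9l1, a galectin gene, was at 68.8, 54.4 and 54.7 CPM in clo/+, against 32.3, 30.0 and 34.6 CPM in wild type (log2 fold change 0.86, SE 0.21, edgeR adjusted p 0.143; 0.0181 with DESeq2). NCF1, a subunit of the phagocyte oxidase that also stands in the neutrophil list, had a log2 fold change of 0.90 (SE 0.33). It ran from 0.60 to 1.36 with 1 library left out, and 2 of 16 alternatives called NCF1, with an edgeR adjusted p of 0.0193 without a filter.

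In Npas4l OE 27 of these effectors were tested. There were 8 lower and 0 higher at an unadjusted p under 0.05 by edgeR, beside 9.36% and 6.11% of all genes, with a median log2 fold change of -0.60. xaf1, a pro-apoptotic interferon target, was at 3.17 and 8.16 CPM in Npas4l OE, against 23.6 and 24.5 CPM in control libraries. With a log2 fold change of -2.08 (SE 0.42) it had an edgeR adjusted p of 0.0984. It was called in 8 of 14 alternatives, several of which also called many more of all genes tested. With 1 library left out the log2 fold change ran from -2.91 to -1.56. mxc was counted 0 and 4 times in Npas4l OE, against 38 and 35 times in control libraries. mxd was counted 0 times in both Npas4l OE libraries, against 15 and 10 times in control libraries, at least 4.275-fold lower when 3 counts per library are taken as the floor. The median of the list was -0.60 as well with mxd at that bound.

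Genes for Isg15 conjugation and negative feedback were 11, all tested, with 2 higher and 2 lower at an unadjusted p under 0.05 in clo/+, beside 7.19% and 4.79% of all genes, and 1 lower in Npas4l OE, beside 9.36%. SOCS3 proteins bind cytokine receptors and Janus kinases and shut signalling down. The 2 SOCS3 genes had opposite signs in clo/+. SOCS3_ENSDARG00000025428 was at 407, 428 and 539 CPM in clo/+, against 675, 810.1 and 917 CPM in wild type. SOCS3_ENSDARG00000026611 was at 88.4, 112 and 110.1 CPM in clo/+, against 72.6, 57.8 and 74.1 CPM in wild type. Neither pair of groups overlapped, beside 18.2% of all genes tested without overlap. The log2 fold changes were -0.82 (SE 0.22) and 0.59 (SE 0.21), the edgeR adjusted p 0.166 and 0.269, and DESeq2 called the first (adjusted p 0.0143). In Npas4l OE the log2 fold changes were 0.42 (SE 0.27) and 0.095 (SE 0.28). uba7, the enzyme that activates Isg15, was at 6.34 and 4.54 CPM in Npas4l OE, against 10.7 and 10.1 CPM in control libraries (log2 fold change -0.95, SE 0.40, edgeR adjusted p 0.298).

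Of the 18 immunoproteasome and class I presentation genes, 16 were tested in the CD41 experiment, of which 14 had log2 fold changes below 0, with a median of -0.28 and 2 lower at an unadjusted p under 0.05, beside 50.2% of all genes below 0 and 4.79% lower at that p. The 2 were psmb12 and psmb13a, both proteasome subunits that fish carry in their major histocompatibility region. psmb12 was at 86.7, 70.3 and 61.4 CPM in clo/+, against 109.7, 108 and 90.8 CPM in wild type (log2 fold change -0.51, SE 0.21, edgeR adjusted p 0.339). In the gata1a experiment 12 of 17 were below 0, beside 50.6% of all genes, with a median of -0.056. b2ml, a beta-2-microglobulin gene, was at 695 and 804 CPM in Npas4l OE, against 947 and 1311 CPM in control libraries (log2 fold change -0.61, SE 0.23, edgeR adjusted p 0.246). For b2ml it ran from -0.83 without control replicate 1 to -0.34 without control replicate 2.

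**Figure D5:**
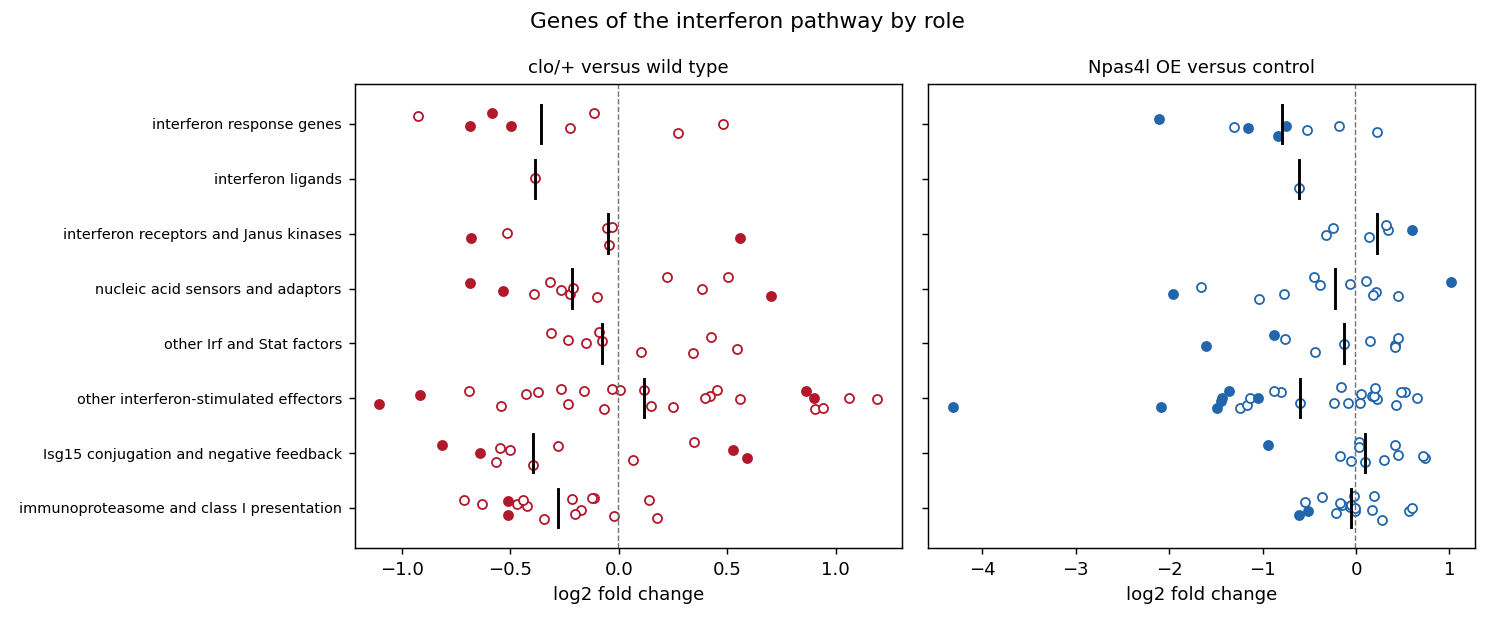
Log2 fold changes of the tested genes of each list in clo/+ versus wild type (left) and Npas4l OE versus control (right; the axes differ); filled points have an unadjusted p under 0.05 by edgeR, black bars are list medians and the dashed line is the median of all genes tested. In Npas4l OE the interferon response genes and the other effectors have medians of -0.79 and -0.60, and the receptors and Janus kinases 0.23; mxd, at 0 counts in Npas4l OE, is not drawn there.

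Across the experiments, the 8 genes fell into those with separate levels and those without. irf1b and irf9 were lower in all 4 gata1a libraries than in all 6 CD41 libraries. irf9 ranged from 18.0 to 30.2 CPM in gata1a libraries and from 66.4 to 100.02 CPM in CD41 libraries, and irf1b from 25.5 to 34.5 CPM and from 73.4 to 116 CPM. By group mean irf9 was highest in wild type (93.95 CPM), then clo/+ (81.1 CPM), control (26.2 CPM) and Npas4l OE (23.3 CPM), and the neighbours within an experiment overlapped. The ranges of the other 6 overlapped. Reporter, injury, treatment and fish line differ between the experiments and cannot be told apart, so no test was made.

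The genes most like the 8 were sought among 9114 genes with a symbol other than a clone name and an average of at least 5 CPM. The measure was Pearson's correlation over the 10 libraries, each gene's log2 CPM centred within its experiment, with the mean of the 8 genes. The libraries share 2 experiments and few replicates, so the values only describe them. The 8 highest were tfa (0.91), igldcp (0.91), VAMP7 (0.89), HBE1_ENSDARG00000089087 (0.89), MRPL4 (0.89), NFATC2 (0.89), HBE1_ENSDARG00000097238 (0.88) and MMP2 (0.87). Over the 6 CD41 libraries alone, their correlations ran from 0.66 for MMP2 to 0.86 for tfa. Over the 4 gata1a libraries alone, they ran from 0.95 for igldcp to 0.997 for VAMP7. No gene of the pathway lists was among these 8, which are a small part of the 9114, so the absence says little about the lists. The mean itself was highest in control replicate 1 (0.66) and lowest in Npas4l OE replicate 1 (-0.75). Among the 6 of the 8 genes that averaged at least 5 CPM, each itself part of that mean, the correlation with it ran from -0.039 for irf1b to 0.88 for rsad2. igldcp was at 16.4 and 20.8 CPM in Npas4l OE, against 51.1 and 33.0 CPM in control libraries, and the globin gene HBE1_ENSDARG00000089087 at 148 and 447 CPM against 1786 and 818 CPM.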

How the data were processed

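The authors deposited 1 file of raw read counts per library, for 32520 Ensembl genes and 5 summary lines in the form htseq-count writes. The counter and its strand setting are not given in the sources used here. FastQC 0.11.4, Trim Galore 0.6.0, HISAT2 2.1.0, DESeq2 1.22.1 and the build GRCz11 are named in the submitters' processing notes. Gene rows held 41.0% to 49.3% of the counts in a file, and the summary lines, which held the rest, were left out. Of these, the line for alignments that are not unique held 16.9% to 20.7% of the counts in a file. Per the labels' protocols, cDNA was primed with oligo-dT, amplified and tagmented, and no molecular identifiers are mentioned, so floors of 3 counts describe counting error alone.

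Groups came from the titles. Replicates are separate pools of sorted cells, and they differed by more than counting noise (chi-square over its degrees of freedom 11.04 to 43.6). Each experiment was fitted alone with edgeR 4.0.16 in R 4.3.3: a two-sided quasi-likelihood test of the group, on genes kept by filterByExpr with a minimum count of 10 and a minimum total of 15, using TMM factors. P-values were adjusted over every gene tested (Benjamini-Hochberg) and called below 0.05. The SE of a log2 fold change is its size divided by the square root of F. Log2 CPM used a prior count of 2. Exact permutation could not go below p = 0.1 for 3 against 3 or 0.333 for 2 against 2. Alternatives were other scaling factors and filters, DESeq2 1.42.0, limma-voom (limma 3.58.1), adjusted deviance, 1 fit of all 10 libraries, a replicate block and each library left out. With 1 library left in a group, it was assumed to vary like the others. The steps were tested on simulated counts.

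Symbols, including human-style capitals, came from a name table covering 29201 of the identifiers, and synonyms from RefSeq's GRCz12tu gene table. The members and lists were chosen with earlier results of these data known. Other genes that the choice of members named are not reported here. Named were all members, npas4l, itga2b, and from each list the genes with an adjusted p under 0.05 or otherwise among the 3 smallest p in a comparison, not all of which are printed.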

Additional observations from a re-analysis of the deposited data

How the results depend on the processing

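The number of genes with an adjusted p under 0.05 depended strongly on the setting, and the cause was not tested. In clo/+ it was 2 in the analysis reported, 1 with upper-quartile factors, with limma-voom and with 1 fit of all 10 libraries, 4 with at least 10 counts in every library and with adjusted deviance, 120 with the replicate block, 150 with DESeq2, 211 without a filter, and 0 to 17 with 1 library left out. In Npas4l OE it was 5, with 2 for library size only, 3 with upper-quartile factors, 30 with at least 10 counts in every library, 69 with adjusted deviance, 90 with limma-voom, 110 with 1 fit of all 10 libraries, 187 with the replicate block, 385 with DESeq2, 648 without a filter, and 52 to 1111 with 1 library left out, the highest without control replicate 1.

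Among the 8 interferon response genes none was called in clo/+ under any of these settings. In Npas4l OE 2 were called without a filter, 1 with DESeq2, 1 with the replicate block and 0 to 2 with 1 library left out; the rest of the settings called 0. Whether the replicate numbers pair the libraries was not settled. In the CD41 experiment same-numbered libraries had correlations of deviations from 0.0071 to 0.080, and different-numbered ones from -0.083 to 0.014. There, clo/+ replicate 1 correlated more with wild-type replicate 2 than with wild-type replicate 1. In the gata1a experiment the value was 0.056 for same and -0.056 for different numbers. With 2 libraries per group these are mirror images and cannot decide. The median log2 fold change with 1 library left out ran from -0.43 to -0.16 in clo/+ and from -1.03 to -0.50 in Npas4l OE.

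Signs turned for genes with small or scattered differences. In clo/+ these were irf1b (0.083 without wild-type replicate 2, 0.00015 without clo/+ replicate 2, at least -0.22) and mxa (0.054 without wild-type replicate 3, -2.07 without clo/+ replicate 3). In Npas4l OE they were mxa (0.58 without control replicate 1, -1.13 without control replicate 2) and irf9 (0.048 without control replicate 1, 0.12 without Npas4l OE replicate 1, 0.0096 with library size only, -0.53 without Npas4l OE replicate 2). Library size only moved the median of all genes by 0.19 in Npas4l OE. mxa and ifih1 had as few as 6 and 7 counts in a library.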

Other observations

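Some interferon-inducible genes are set out here by experiment, and were chosen after their values were seen. The CPM ranges of mhc1uba, TNFSF10 and SOCS1 were separate between the experiments. Those of mhc1zba overlapped and those of ifit8 nearly met. mhc1uba, a class I histocompatibility gene, had 0 counts in all 6 CD41 libraries, which allows up to 0.23 to 0.44 CPM in a library (3 counts), and 358 and 400 CPM in Npas4l OE and 509 and 152 CPM in control libraries. mhc1zba, another class I gene, was present in both, at 1277 to 2038 CPM in CD41 libraries and 2007 to 3689 CPM in gata1a libraries. TNFSF10 was at 2.52 to 4.25 CPM over the 6 CD41 libraries, and at 4.82 and 31.1 CPM in Npas4l OE and 33.3 and 51.0 CPM in control libraries. ifit8 was counted 5 to 14 times in clo/+ libraries and 0 or 1 times in wild-type libraries, and 9 and 53 times in Npas4l OE and 90 and 58 times in control libraries. SOCS1, a feedback inhibitor of interferon signalling, was at 18.2 to 48.5 CPM in clo/+ and 35.9 to 63.2 CPM in wild type, and at 6.09 and 4.75 CPM in Npas4l OE and 2.45 and 3.95 CPM in control libraries. The experiments differ in reporter, injury, treatment and fish line, which cannot be told apart. Class I genes are many and alike, so reads that align to more than 1 of them may be missing from the gene counts.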
